A study of Mus musculus with 27 samples.

Results

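Interferon-stimulated genes are the genes that cells switch on when interferon binds its receptor, and they were followed here in mouse hearts under pressure overload with and without the BET bromodomain inhibitor JQ1. A list of 40 such genes was given by name. Of these, 37 had a probe set that names them alone and were measured among 19937 genes in all. Isg15 and Gbp2 shared their probe set with a second gene, and Ifi44 was not named in the annotation used, so these 3 have no value here. For a gene with several probe sets, the one with the highest mean over the arrays stood for the gene; among the 37 this applied to Irf1. Several members belong to families of similar genes (the Ifit, Oas, Gbp and Trim30 families), and binding of one gene's RNA to the probes of another was not assessed.

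Interferons alpha and beta bind the receptor pair Ifnar1 and Ifnar2, and the kinases Jak1 and Tyk2 then phosphorylate Stat2. Stat2 and Irf9 are parts of the complex ISGF3, which binds a DNA element called the interferon-stimulated response element (ISRE) before its target genes. Interferon gamma acts through another receptor and another DNA element, the gamma-activated site (GAS). The target genes encode sensors of foreign RNA and DNA, transcription factors that amplify the response, and proteins that block viral RNA, modify proteins with ISG15 or ADP-ribose, or process antigen. In the heart they are expressed by resident macrophages, endothelial cells, fibroblasts and cardiomyocytes.

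The hearts came from C57Bl/6J littermate males aged 10 to 12 weeks. The labels name no genetic change. Transverse aortic constriction (TAC) narrowed the aortic arch between the carotid arteries, and sham surgery was the control. JQ1, which displaces BET proteins from acetylated chromatin, or its DMSO vehicle was injected from 1.5 days after surgery. There were 9 groups of 3 arrays: TAC JQ1, TAC vehicle and sham vehicle at days 3, 11 and 28. No sham group received JQ1, so every effect of JQ1 is one under TAC. RNA came from a piece of heart of 10 to 20 mg, so a difference between arrays can also be one between pieces. The labels do not say that the 3 arrays of a group are separate animals, so a p-value here speaks of the spread among arrays, which may be technical.

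The deposited values are log2 signals, with array medians between 6.954 and 7.043. The number of arrays limits the precision. One limma model with a mean per group was fitted to the 27 arrays. A gene is called below when its Benjamini-Hochberg adjusted p over the 19937 genes is under 0.05. Changes are differences in log2 signal with the standard error of the fit, and a change of 1 is a doubling. The 10 cardiomyocyte markers lay at the 99.4 to 100 percentile of mean level, which fits the heart label. Hexim1, a gene that BET inhibitors raise in many cells, rose with JQ1 by 1.85, 1.77 and 1.94 at days 3, 11 and 28. Nppa, the natriuretic peptide gene of overloaded heart muscle, rose with TAC by 1.44, 1.82 and 1.69 on the same days.

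Members covered most of the range of levels. Their mean over the 27 arrays ran from 5.30 for Mx1, at the 11.81 percentile of all genes, to 9.85 for Lgals3bp, at the 90.19 percentile. Mx1 and Mx2 (5.89) were the dimmest members. Most inbred laboratory strains, C57BL/6 included, carry a deletion in Mx1.

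RefSeq gene starts (GRCm38.p6) were found for 30 of the 40 listed genes. The 250 bases before each start were searched on both strands for ISRE letters, taken as GAAA, any 2 bases and GAAA, and for GAS letters, taken as TTC, any 3 bases and GAA. Overlapping matches were counted singly. The ISRE letters were in 11 of the 35 windows of members (31.4%), against 978 of 32851 windows of all genes (2.98%). The GAS letters were in 5 of the 35 windows (14.3%), against 7.02% of all windows. The 11 genes with ISRE letters were Bst2, Gbp2, Gbp3, Ifit1, Ifit3, Isg15, Oas1a, Oas3, Rsad2, Stat2 and Trim30a. A match is a run of letters and no evidence of binding in these hearts. The windows below belong to 5 members whose values are given further on. Ifit3, Ifit1, Rsad2 and Stat2 hold the letters, and Oasl2, with changes close to those of Ifit3, holds none in its window. The capitals mark ISRE matches, all 4 genes having them on the reverse strand, so that they read TTTC, 2 bases and TTTC.
Ifit3 (chr19:34583279-34583528, + strand): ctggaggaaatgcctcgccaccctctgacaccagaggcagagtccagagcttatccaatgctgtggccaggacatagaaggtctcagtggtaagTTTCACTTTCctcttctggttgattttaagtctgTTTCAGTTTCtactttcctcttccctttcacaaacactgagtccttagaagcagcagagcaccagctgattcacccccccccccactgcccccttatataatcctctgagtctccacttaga
Ifit1 (chr19:34640639-34640888, + strand): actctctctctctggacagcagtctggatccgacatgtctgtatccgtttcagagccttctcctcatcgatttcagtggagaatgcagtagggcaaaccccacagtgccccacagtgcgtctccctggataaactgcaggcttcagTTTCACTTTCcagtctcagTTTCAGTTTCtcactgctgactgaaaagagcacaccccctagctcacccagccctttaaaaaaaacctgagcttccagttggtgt
Rsad2 (chr12:26456453-26456702, - strand): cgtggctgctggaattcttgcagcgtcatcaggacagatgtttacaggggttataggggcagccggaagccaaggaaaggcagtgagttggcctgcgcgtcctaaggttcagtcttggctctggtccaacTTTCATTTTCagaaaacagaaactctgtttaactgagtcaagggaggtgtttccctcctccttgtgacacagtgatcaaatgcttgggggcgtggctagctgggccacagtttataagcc
Stat2 (chr10:128270248-128270497, + strand): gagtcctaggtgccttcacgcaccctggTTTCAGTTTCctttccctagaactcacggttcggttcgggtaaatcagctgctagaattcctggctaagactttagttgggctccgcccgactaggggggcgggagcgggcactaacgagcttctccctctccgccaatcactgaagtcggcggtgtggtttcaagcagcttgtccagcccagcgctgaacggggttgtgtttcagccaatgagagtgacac
Oasl2 (chr5:114896684-114896933, + strand): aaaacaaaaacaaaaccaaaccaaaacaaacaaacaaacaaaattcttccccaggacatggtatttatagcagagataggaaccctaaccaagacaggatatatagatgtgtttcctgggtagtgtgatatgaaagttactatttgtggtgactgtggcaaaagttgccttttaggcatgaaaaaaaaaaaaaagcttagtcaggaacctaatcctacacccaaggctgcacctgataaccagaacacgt

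In Ifit3 the 2 matches began 122 and 156 bases before the start, and in Ifit1 85 and 104. The single match of Rsad2 began 120 bases before the start and that of Stat2 222. Dhx58, Zbp1, Mx1, Mx2, Oas2, Usp18, Parp9, Parp14, Ifi27l2a and Rtp4 were not in the promoter table.

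The mean of the 37 members in each array gives the course of the list. On day 3 it was 7.23, 7.39 and 7.57 in TAC JQ1, 7.91, 7.95 and 7.79 in TAC vehicle, and 7.98, 7.96 and 7.89 in sham vehicle. The 3 JQ1 arrays lay below all others of that day, and TAC vehicle overlapped sham vehicle. On day 11 the list mean was 7.88, 8.18 and 7.83 in TAC JQ1, 8.24, 8.29 and 8.14 in TAC vehicle, and 7.82, 7.70 and 7.81 in sham vehicle. TAC vehicle lay above sham vehicle without overlap, and the second JQ1 array (8.18) overlapped TAC vehicle. By day 28 the list mean was 8.77, 7.88 and 7.86 in TAC JQ1, 8.29, 8.28 and 8.17 in TAC vehicle, and 7.80, 7.89 and 7.87 in sham vehicle. Here TAC vehicle again lay above sham vehicle without overlap, 2 JQ1 arrays lay within the range of sham vehicle, and the first JQ1 array lay above every other array of the study. As group means, TAC JQ1 had 7.40 ± 0.17, 7.96 ± 0.19 and 8.17 ± 0.52 at days 3, 11 and 28 (SD, n = 3 each). TAC vehicle had 7.89 ± 0.08, 8.23 ± 0.08 and 8.25 ± 0.07, and sham vehicle 7.94 ± 0.05, 7.78 ± 0.06 and 7.85 ± 0.05 (SD, n = 3 each).

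**Figure D1:**
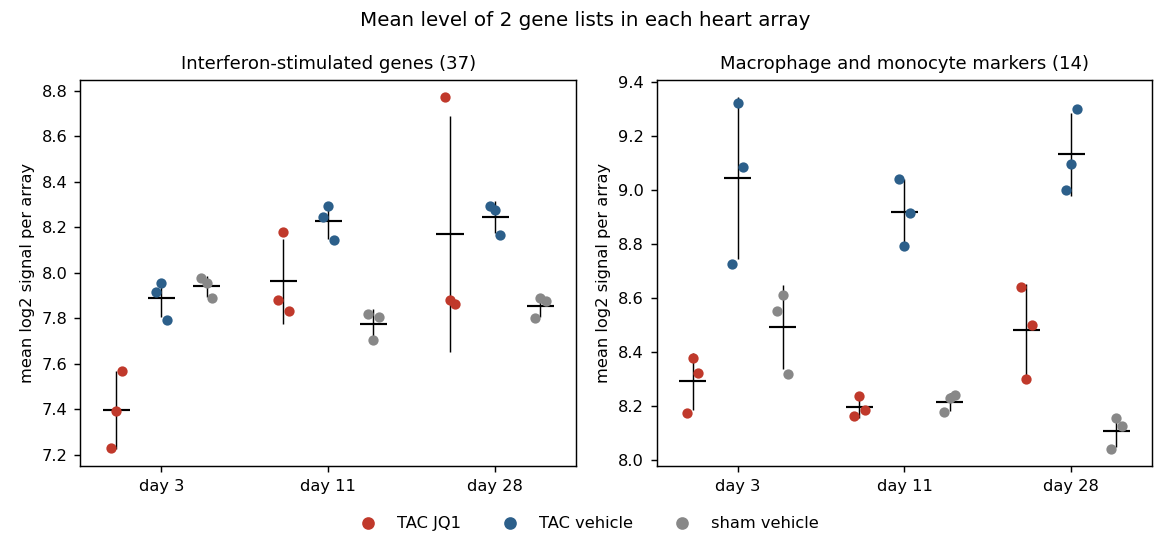
Mean log2 signal per array of the 37 interferon-stimulated genes (left) and of 14 macrophage and monocyte markers (right), by day. Each point is 1 array, the bar is the group mean and the line is the SD (n = 3). TAC JQ1 at day 3 (7.23 to 7.57) lies below all other groups in the left panel, and 1 TAC JQ1 array at day 28 (8.77) lies above all arrays, while on the right the TAC JQ1 arrays lie below TAC vehicle on every day.

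The first TAC JQ1 array of day 28 has to be described before any comparison, because it stands apart in these genes. All 37 members were above the mean of the other 2 JQ1 arrays of that day, by a median of 0.92, against 0.00 over all genes. Of the 37, 36 were above both of the other arrays, the exception being Irf1. In 29 of the 37 (78.4%) the array held the highest value of all 27 arrays, as it did for 914 of the 19937 genes (4.58%). Ifit1 had 10.00 in this array and 8.01 and 7.85 in the other 2, a difference of 2.07 (4.19-fold) and the largest of all 19937 genes. Ifit3 differed by 2.01, Rtp4 by 1.76, Oasl2 by 1.65 and Ifit2 by 1.60. The difference was smallest for Irf1 (0.20), Tap1 (0.27) and Oas3 (0.28).

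The genes around the list did not all stand out in that array. The 15 measured interferon ligand genes differed by a median of 0.03, and 0 of them had their highest value there. Receptors and signalling genes differed by a median of 0.03 with 0 of 15 highest. A further 50 interferon-stimulated genes outside the list differed by a median of 0.50, with 22 highest in that array. The 4 measured class I antigen presentation genes differed by a median of 0.33, all 4 above 0 and 3 highest in that array, against 4.58% of all genes. Macrophage and monocyte markers differed by a median of 0.39 with 0 of 14 highest, neutrophil markers by −0.62 and lymphocyte markers by −0.00. The 13 genes of the pathway to interferon production differed by 0.13 with 2 highest, and 10 fibroblast markers by 0.22 with 2 highest. Of 5 plasmacytoid dendritic cell markers, the member Bst2 included, 2 were highest (median 0.11). Endothelial markers (0.15) and cardiomyocyte markers (−0.06) had 0 of 10 highest each. The labels give no reason to set the array aside, and what set it apart was not tested. Since the fit shares 1 spread per gene among all groups, this array widens the error of members in every comparison. The SD of the list mean between arrays of a group, pooled over groups, was 0.20 with it and 0.103 without it. Counts are therefore given with and without this array, the second chosen after the data were seen. The array was singled out because the members are high in it. Leaving it out therefore lowers the members in TAC JQ1 at day 28 by construction, and it narrows their error in every comparison.

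**Figure D2:**
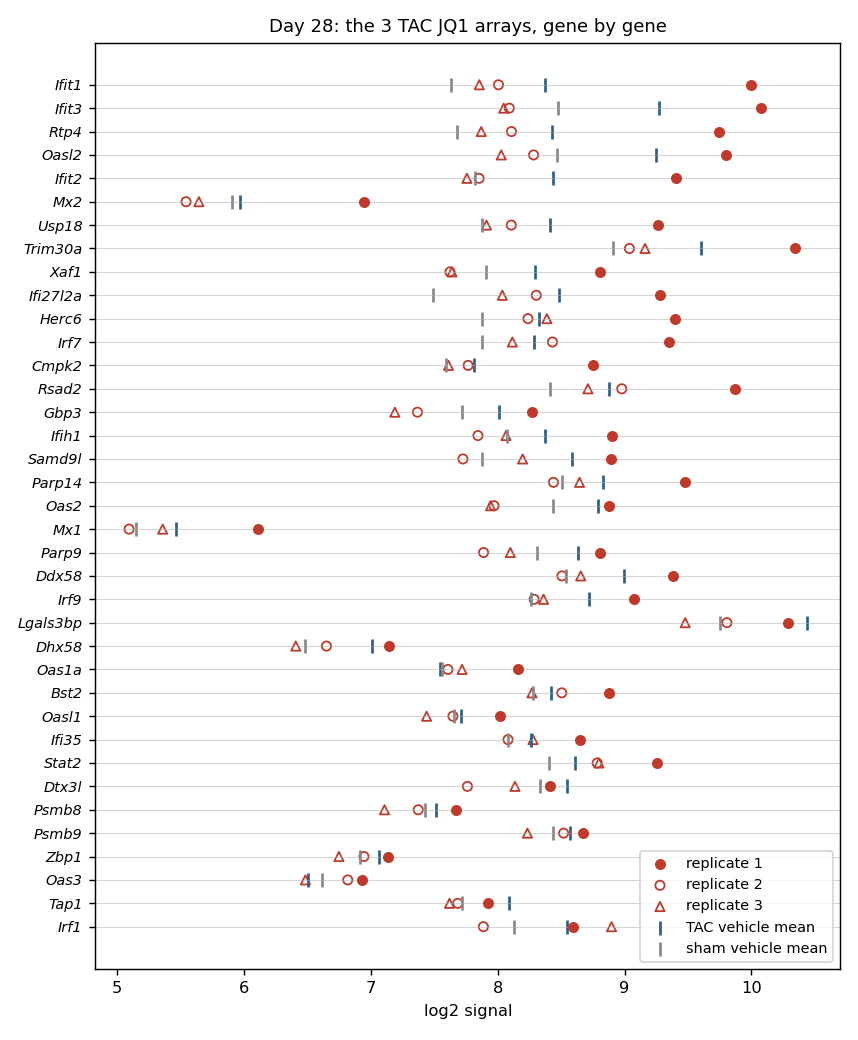
Log2 signal of each of the 37 members in the 3 TAC JQ1 arrays of day 28 (red marks), with the TAC vehicle mean (blue tick) and the sham vehicle mean (grey tick) of that day. Genes are ordered by the difference between replicate 1 and the mean of replicates 2 and 3, from 2.07 (Ifit1, top) to 0.20 (Irf1, bottom), and replicate 1 is the rightmost red mark for every gene except Irf1.

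TAC against sham vehicle asks what pressure overload alone did to these genes. On day 3, 0 of the 37 members were called by limma (7.55% of all genes were, 4.22% higher and 3.33% lower), and 2 had an unadjusted p under 0.05. The median change of members was −0.06 against −0.03 over all genes, and changes ran from −0.43 (Gbp3) to 0.46 (Ifi27l2a). In Gbp3, which encodes an interferon-inducible GTPase, all 3 TAC vehicle arrays lay below sham vehicle. In Ifi27l2a, a small mitochondrial protein gene of the interferon response, all 3 lay above, as in 9.7% of all genes. The third smallest p was that of Rsad2 (−0.36). TAC vehicle lay below sham vehicle without overlap in 6 more members, Ifih1, Stat2, Rsad2, Cmpk2, Xaf1 and Rtp4; such genes were 11.9% of all. Without the first JQ1 array of day 28, Ifi27l2a (adjusted p = 0.0332) and Gbp3 (0.0266) were called, and no other member was (7.76% of all genes called).

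By day 11 of TAC, 11 of the 37 members had risen and 0 had fallen (15.5% of all genes were called, 7.8% higher and 7.73% lower). These were Ifit3 (1.08), Ifi27l2a (1.05), Oasl2 (0.81), Rsad2 (0.75), Samd9l (0.67), Lgals3bp (0.64), Irf7 (0.63), Dhx58 (0.61), Trim30a (0.60), Ddx58 (0.55) and Gbp3 (0.53). All 37 changes were above 0, with a median of 0.40 against 0.01 over all genes. In 30 of the 37 the TAC vehicle arrays lay above sham vehicle without overlap, as in 16.8% of all genes, and in 0 they lay below (16.6%). The count of 11 was 23 without the first JQ1 array of day 28 (16% of all genes called). It was also 23, all higher and with the 11 among them, with only the 2 groups compared in the fit. It was 6, 4 and 6 without sham vehicle replicate 1, 2 or 3, and 5, 5 and 7 without TAC vehicle replicate 1, 2 or 3.

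At day 28, 7 of the 37 members were higher with TAC and 0 were lower (15.1% of all genes were called, 8.13% higher and 6.98% lower). They were Ifi27l2a (0.99), Samd9l (0.71), Trim30a (0.69), Lgals3bp (0.68), Dhx58 (0.53), Ddx58 (0.46) and Tap1 (0.37). The median change was 0.37 against −0.05 over all genes, and 35 of the 37 were above 0. Again 30 of the 37 showed TAC vehicle above sham vehicle without overlap, against 16.6% of all genes, and 0 showed the reverse, against 21.1%. Without the first JQ1 array of day 28 the count was 16 (15.7% of all genes called). Without sham vehicle replicate 1 it was 3, and with only the 2 groups compared in the fit it was 22, all higher. Over the mean of the 3 days, 12 members were higher and 0 lower (25.9% of all genes called, 13% higher). The count was 22 without the odd JQ1 array (26.1% of all genes called), and 26 with only the TAC vehicle and sham vehicle arrays in the fit. The 12 were Ddx58, Dhx58, Irf9, Ifit2, Ifit3, Mx1, Oasl2, Samd9l, Tap1, Ifi27l2a, Lgals3bp and Trim30a.

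TAC JQ1 against TAC vehicle asks what the inhibitor did under overload. On day 3, 16 of the 37 members fell and 0 rose (11.9% of all genes were called, 7.61% lower and 4.28% higher). The falls were those of Ifit3 (−1.63), Oasl2 (−1.30), Rtp4 (−1.07), Oas2 (−1.02), Ifi27l2a (−0.79), Gbp3 (−0.73), Trim30a (−0.72), Samd9l (−0.68), Rsad2 (−0.67), Parp9 (−0.66), Lgals3bp (−0.65), Irf9 (−0.63), Dtx3l (−0.63), Parp14 (−0.53), Ddx58 (−0.51) and Dhx58 (−0.43). The median was −0.46 against 0.02 over all genes, and 34 of the 37 were below 0. In 26 of the 37 the JQ1 arrays lay below TAC vehicle without overlap, as in 12% of all genes. TAC JQ1 at day 3 had the lowest mean of the 9 groups in 31 of the 37 members (83.8%), against 11.3% of all genes. In 14 of the 37 (37.8%) all 3 of its arrays lay below each of the 24 other arrays, against 0.707% of all genes. The count of 16 was 22 without the first JQ1 array of day 28 (12.2% of all genes called). It was 9, 7 and 6 without TAC vehicle replicate 1, TAC vehicle replicate 2 or JQ1 replicate 1. With only the 2 groups compared in the fit 11 members fell, 9 of them among the 16. The calls lost there were those of Ddx58 (adjusted p = 0.0576), Parp14 (0.0584), Dtx3l (0.067), Dhx58 (0.0687), Samd9l (0.092), Irf9 (0.1) and Rsad2 (0.131).

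On day 11, 4 members were lower with JQ1 and 0 higher (16% of all genes were called, 8.43% lower), so that the share of members called, 10.8%, was not above that of all genes. They were Gbp3 (−0.66), Lgals3bp (−0.60), Dhx58 (−0.42) and Oasl1 (−0.38). The median was −0.27 against −0.05 over all genes, and 32 of the 37 were below 0. In 15 of the 37 the groups did not overlap, JQ1 being lower, against 19.5% of all genes. JQ1 replicate 2 was the highest of its group in 32 of the 37 members (30.9% of all genes). The count was 11 without the first JQ1 array of day 28 (16.3% of all genes called). It was 1 without TAC vehicle replicate 1, 1 without TAC vehicle replicate 2 and 2 without JQ1 replicate 1. It was 8 with only the 2 groups compared in the fit, where Dhx58 was not called (adjusted p = 0.064).

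At day 28, 3 members were lower and 1 was higher in TAC JQ1 (19.6% of all genes called, 12.4% lower and 7.16% higher). Lgals3bp (−0.58), Dtx3l (−0.45) and Tap1 (−0.35) were the lower ones and Stat2 (0.34) the higher one. The median was −0.09 against 0.06 over all genes, with 21 of the 37 below 0 and 16 above. TAC JQ1 lay below TAC vehicle without overlap in 2 members (17% of all genes) and above it in 1 (18%). With only the 2 groups compared in the fit 0 members were called, the adjusted p being 0.0693 for Lgals3bp, 0.0838 for Dtx3l, 0.0848 for Tap1 and 0.149 for Stat2. Without replicate 1 of TAC JQ1, 15 members were lower and 0 higher (16.1% of all genes called), with a median of −0.39 and 34 of 37 below 0. The mean change of the list, −0.07 with all arrays, was −0.37 without it. Replicate 1 was singled out for its high members, so these shifts follow from leaving it out and are no separate evidence of a fall. The count was 2 without TAC vehicle replicate 1, 2 without TAC vehicle replicate 2 and 2 without JQ1 replicate 2. As a mean of the 3 days 18 members were lower and 1 higher (29.1% of all genes called, 16.8% lower). Without the odd array 28 were lower and 1 higher (28.6% of all genes called). The 18 lower were Ddx58, Dhx58, Zbp1, Irf9, Ifit3, Oasl1, Oasl2, Oas2, Samd9l, Gbp3, Parp9, Dtx3l, Psmb8, Tap1, Ifi27l2a, Xaf1, Lgals3bp and Trim30a. Stat2 was the higher one.

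**Figure D3:**
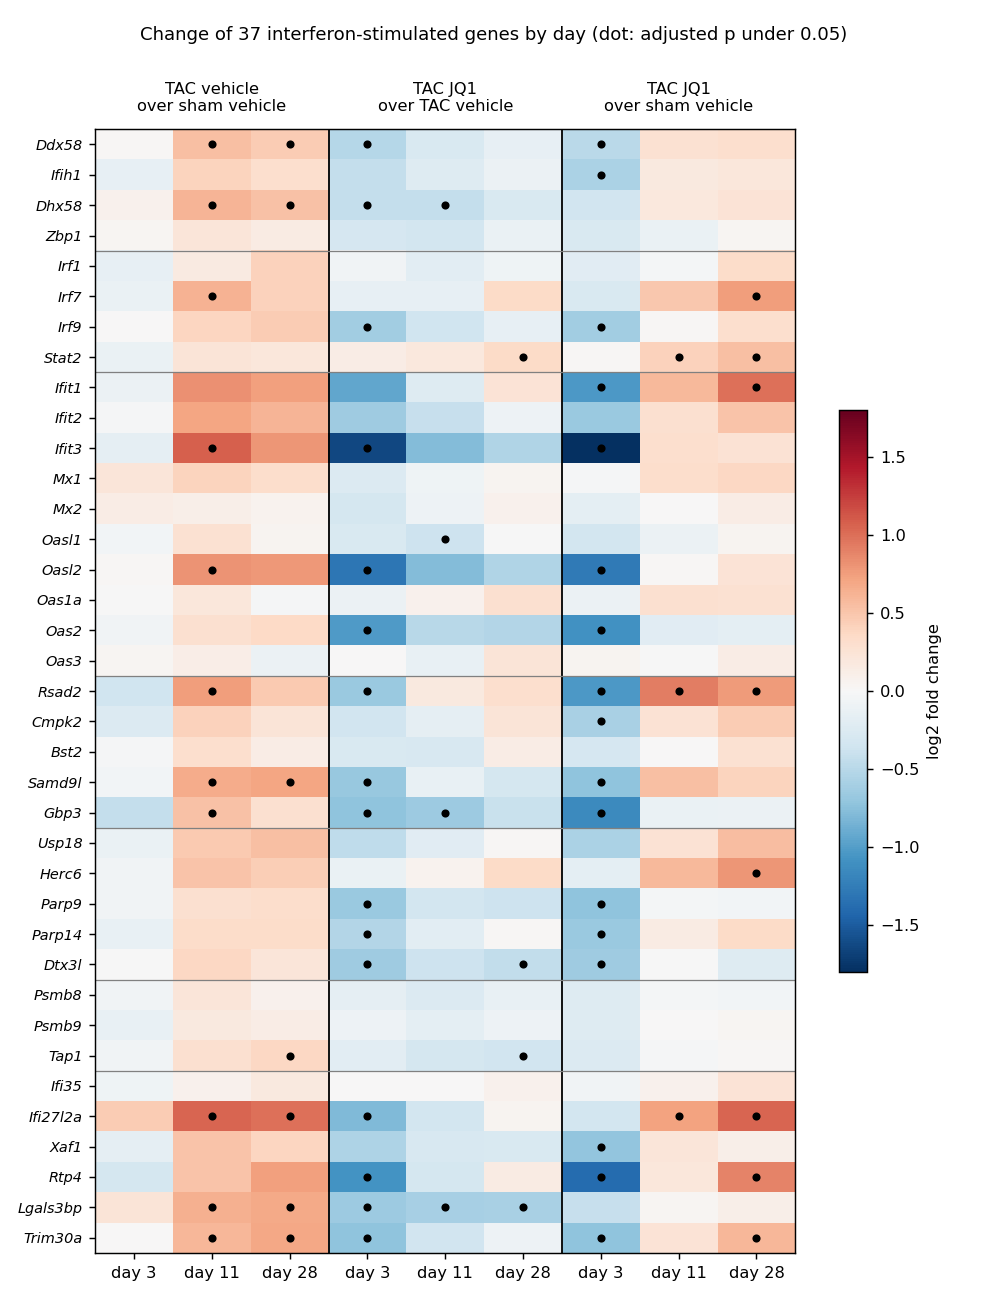
Log2 fold change of the 37 members by day in 3 comparisons: TAC vehicle over sham vehicle, TAC JQ1 over TAC vehicle and TAC JQ1 over sham vehicle. Red is higher and blue lower in the group named first, dots mark adjusted p under 0.05, and grey lines separate the roles. TAC columns hold dots at days 11 (11 genes) and 28 (7 genes) and none at day 3, and the JQ1 columns hold most dots at day 3 (16 genes).

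TAC JQ1 was also set against sham vehicle, the hearts without overload. On day 3, 17 of the 37 members were lower and 0 higher (17.6% of all genes called, 10.7% lower and 6.94% higher), with a median of −0.49. In 25 of the 37 all JQ1 arrays lay below all sham vehicle arrays (15.2% of all genes). Ifit3 was lower by 1.79, Rtp4 by 1.38, Oasl2 by 1.28, Gbp3 by 1.15, Oas2 by 1.08, Ifit1 by 1.04 and Rsad2 by 1.03. The Ifit1 call was lost for 5 of the 7 arrays left out in turn (adjusted p up to 0.107). Calls of the other genes just named held under every alternative. Parp9, Samd9l, Trim30a, Xaf1, Parp14, Dtx3l, Irf9, Cmpk2, Ifih1 and Ddx58 were the other 10, with changes of −0.73 to −0.49. Without the first JQ1 array of day 28 the count was 23 (18% of all genes called), and it was 11 without JQ1 replicate 1 of day 3. With only the 2 groups compared in the fit Samd9l (adjusted p = 0.0539), Ifih1 (0.0576) and Irf9 (0.0703) were not called.

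On day 11, 3 members were higher in TAC JQ1 than in sham vehicle and 0 lower (10.5% of all genes called, 5.01% higher and 5.51% lower), with a median of 0.17. They were Rsad2 (0.92), Ifi27l2a (0.72) and Stat2 (0.41). The count was 7 without the first JQ1 array of day 28 (10.7% of all genes called). It was 1 without sham vehicle replicate 2, 1 without JQ1 replicate 1, 1 without JQ1 replicate 2 and 5 without JQ1 replicate 3. On day 28, 8 members were higher and 0 lower (19.9% of all genes called, 7.36% higher), with a median of 0.27. Ifi27l2a (1.05), Ifit1 (0.99), Rtp4 (0.90), Herc6 (0.79), Rsad2 (0.77), Irf7 (0.76), Trim30a (0.60) and Stat2 (0.54) were those. Most of these rested on JQ1 replicate 1. Without it only Ifi27l2a (0.68) and Stat2 (0.39) stayed higher, Gbp3 (−0.44) was lower, and the median was 0.04 (14.8% of all genes called). Since that array was singled out for its high members, lower values without it follow from the choice. The count of 8 was 16 without JQ1 replicate 2, 13 without JQ1 replicate 3 and 5 without any one of the sham vehicle arrays. It was 2 with only the 2 groups compared in the fit. Over the mean of the 3 days 4 members were higher and 4 lower in TAC JQ1 than in sham vehicle. Of all genes 29.9% were called, 12.8% higher and 17.1% lower. Irf7, Stat2, Herc6 and Ifi27l2a were the higher ones, and Oas2, Gbp3, Parp9 and Dtx3l the lower ones. Without the first JQ1 array of day 28, 3 were higher and 10 lower (28.7% of all genes called). This comparison shares its TAC JQ1 arrays and its sham vehicle arrays with the other comparisons, so its values stand beside theirs and are not independent of them.

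**Figure D4:**
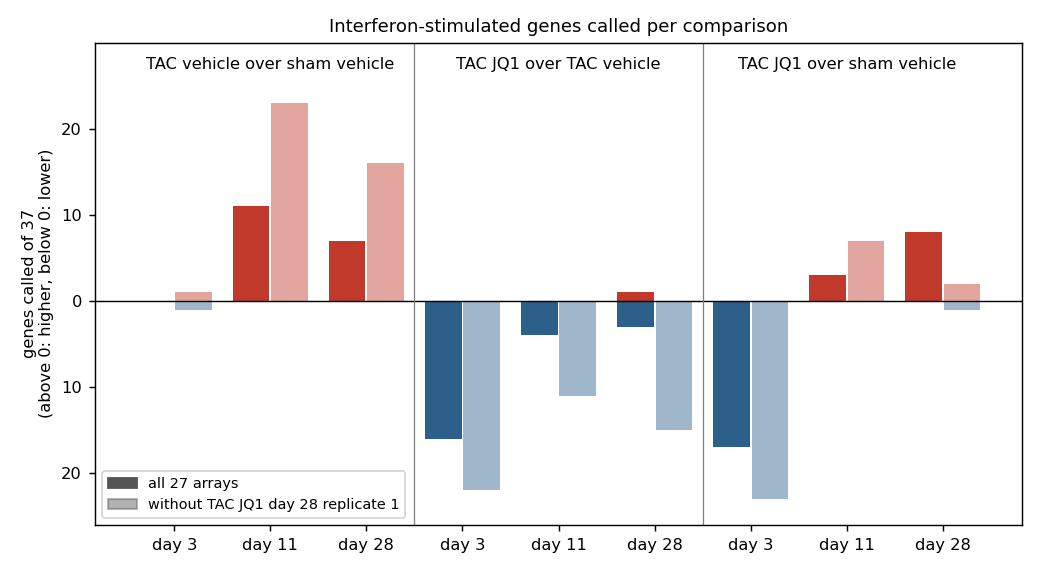
Number of the 37 members called higher (above 0) or lower (below 0) in each comparison and day, with all 27 arrays (dark bars) and without TAC JQ1 day 28 replicate 1 (pale bars). Leaving the array out raises the count for TAC at day 11 to 23 and for JQ1 at day 3 to 22 lower. At day 28 it gives 15 lower for JQ1 against TAC vehicle and 2 higher and 1 lower for TAC JQ1 over sham vehicle. The array was singled out for its high members.

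Whether an effect differed between days was tested with F tests. For TAC 0 of the 37 members passed in limma (1.31% of all genes did), with 13 at an unadjusted p under 0.05, the lowest adjusted p being those of Gbp3 (0.0908), Rsad2 (0.104) and Samd9l (0.209). For JQ1 0 passed (1.07% of all genes), with 4 at an unadjusted p under 0.05 and the lowest adjusted p for Rsad2 (0.134), Bst2 (0.189) and Ifi27l2a (0.194). The sham vehicle level differed between days in 0 members (0.0652% of all genes), with 0 at an unadjusted p under 0.05. Without the first JQ1 array of day 28 the TAC effect differed by day in 6 members (2.1% of all genes). They were Trim30a (adjusted p = 0.00534), Gbp3 (0.00769), Rsad2 (0.0255), Ifit3 (0.0344), Rtp4 (0.0477) and Cmpk2 (0.0497). The JQ1 effect then still differed by day in 0 members (0.286% of all genes). With only the TAC vehicle and sham vehicle arrays in the fit the TAC effect differed by day in 17 members, so whether a difference between days was called for TAC turned on which arrays shared the fit. With only the TAC JQ1 and TAC vehicle arrays in the fit the JQ1 effect differed by day in 0 members.

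The sensors recognise foreign nucleic acid in the cell. Ddx58 (RIG-I) binds viral RNA ends, and at day 3 its log2 signal was 8.07, 8.05 and 8.30 in TAC JQ1, 8.65, 8.81 and 8.49 in TAC vehicle and 8.65, 8.68 and 8.55 in sham vehicle. Day 11 gave 8.65, 9.01 and 8.55 in TAC JQ1, 9.08, 9.0 and 8.96 in TAC vehicle and 8.42, 8.48 and 8.49 in sham vehicle. On day 28 the values were 9.38, 8.51 and 8.65 in TAC JQ1, 9.01, 8.98 and 9.0 in TAC vehicle and 8.48, 8.58 and 8.57 in sham vehicle. JQ1 arrays were thus the lowest at day 3, and TAC vehicle lay above sham vehicle without overlap at days 11 and 28. Ddx58 rose with TAC by 0.55 ± 0.15 at day 11 (adjusted p = 0.0108) and by 0.46 ± 0.15 at day 28 (0.0348), and fell by 0.51 ± 0.15 with JQ1 at day 3 (0.0223). The day 11 call held without each array in turn, and the day 28 call was lost without any single one of its 6 arrays (0.0677 to 0.116). The call with JQ1 was lost on leaving out TAC JQ1 replicate 1 (0.0882) or 2 (0.0749) or TAC vehicle replicate 1 (0.0554) or 2 (0.115).

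Dhx58 (LGP2), which tunes the other RNA sensors, rose with TAC by 0.61 ± 0.14 at day 11 (adjusted p = 0.00317) and 0.53 ± 0.14 at day 28 (0.00951), and both calls held without each array in turn. With JQ1 it fell by 0.43 ± 0.14 at day 3 (0.0449) and by 0.42 ± 0.14 at day 11 (0.038). The day 3 call was lost on leaving out TAC JQ1 replicate 1 (0.215) or 2 (0.0622) or TAC vehicle replicate 1 (0.101), 2 (0.135) or 3 (0.074). The day 11 call was lost on leaving out TAC JQ1 replicate 1 (0.18) or 3 (0.107) or TAC vehicle replicate 1 (0.0655) or 2 (0.214). Ifih1 (MDA5), the sensor of long double-stranded RNA, had 7.88, 7.26 and 7.57 in TAC JQ1, 8.01, 8.03 and 7.94 in TAC vehicle and 8.17, 8.12 and 8.14 in sham vehicle at day 3. All JQ1 arrays lay below both other groups. Ifih1 was called only for TAC JQ1 against sham vehicle at day 3 (−0.58 ± 0.18, adjusted p = 0.0255), a call lost on leaving out TAC JQ1 replicate 2 (0.151) or 3 (0.0513) or sham vehicle replicate 1 (0.0688), 2 (0.053) or 3 (0.0636). Zbp1, a sensor of Z-form nucleic acid, was lower with JQ1 over the 3 days (−0.25 ± 0.07, adjusted p = 0.00748) and was called on no single day.

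The 4 transcription factors of the list did not all move one way. Irf7, which drives interferon genes in infected cells, had 7.59, 7.61 and 7.74 in TAC JQ1, 7.68, 7.99 and 7.72 in TAC vehicle and 7.89, 8.04 and 7.81 in sham vehicle at day 3. On day 11 Irf7 stood at 8.41, 8.64 and 7.89 in TAC JQ1, 8.40, 8.62 and 8.35 in TAC vehicle and 7.95, 7.75 and 7.78 in sham vehicle. At day 28 it stood at 9.35, 8.43 and 8.12 in TAC JQ1, 8.44, 8.36 and 8.07 in TAC vehicle and 7.71, 7.92 and 7.99 in sham vehicle. TAC JQ1 and TAC vehicle overlapped on all 3 days, and TAC vehicle lay above sham vehicle at days 11 and 28. The rise with TAC at day 11 was 0.63 ± 0.21 (adjusted p = 0.0393), and it was lost without any single one of the 6 arrays (0.0609 to 0.146). With JQ1 the changes of Irf7 were −0.15 ± 0.21, −0.14 ± 0.21 and 0.34 ± 0.21 at days 3, 11 and 28 (adjusted p = 0.765, 0.686 and 0.235). Without JQ1 replicate 1 the day 28 change was −0.01.

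Stat2, the partner of Irf9 in ISGF3, was the 1 member called higher with JQ1. It had 8.28, 8.52 and 8.41 in TAC JQ1, 8.28, 8.25 and 8.26 in TAC vehicle and 8.45, 8.37 and 8.33 in sham vehicle at day 3. On day 11 Stat2 had 8.75, 8.86 and 8.51 in TAC JQ1, 8.53, 8.65 and 8.38 in TAC vehicle and 8.29, 8.23 and 8.35 in sham vehicle. Day 28 gave 9.26, 8.78 and 8.80 in TAC JQ1, 8.77, 8.63 and 8.43 in TAC vehicle and 8.43, 8.37 and 8.41 in sham vehicle. JQ1 arrays lay above sham vehicle without overlap at days 11 and 28, and above TAC vehicle without overlap at day 28. The change with JQ1 was 0.22 ± 0.06 over the 3 days (adjusted p = 0.00938), and 0.17 ± 0.05 without JQ1 replicate 1 of day 28 (0.0203). At day 28 it was 0.34 ± 0.11 (adjusted p = 0.0305), and this call was lost on leaving out TAC JQ1 replicate 1 (0.218) or TAC vehicle replicate 2 (0.0636) or 3 (0.161), and with only the 2 groups compared in the fit (0.149). Against sham vehicle Stat2 was higher in TAC JQ1 by 0.41 ± 0.11 at day 11 (0.0153) and 0.54 ± 0.11 at day 28 (0.000777), the second still called without JQ1 replicate 1 (0.39, adjusted p = 0.00988) and the first lost on leaving out TAC JQ1 replicate 1 (0.0659) or 2 (0.101) or sham vehicle replicate 2 (0.0679).

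Irf9, the DNA-binding part of ISGF3, moved the other way. At day 3 it had 7.34, 7.96 and 7.94 in TAC JQ1, 8.46, 8.45 and 8.20 in TAC vehicle and 8.50, 8.24 and 8.35 in sham vehicle. All JQ1 arrays lay below both other groups. The fall with JQ1 was −0.63 ± 0.16 (adjusted p = 0.0122), lost on leaving out TAC JQ1 replicate 1 (0.116) or TAC vehicle replicate 2 (0.0554) or with only the 2 groups compared in the fit (0.1), and the mean of the 3 days was −0.38 ± 0.09 (0.00292). Irf1, a factor induced mainly by interferon gamma, was called in no comparison. Its signals at day 3 were 8.05, 8.01 and 8.09 in TAC JQ1, 8.22, 8.03 and 8.08 in TAC vehicle and 8.21, 8.35 and 8.20 in sham vehicle. At day 28 they were 8.59, 7.89 and 8.90 in TAC JQ1, 8.53, 8.60 and 8.49 in TAC vehicle and 8.15, 8.18 and 8.06 in sham vehicle. TAC vehicle lay above sham vehicle there (0.41 ± 0.15, adjusted p = 0.0568), and 1 JQ1 array lay below both groups while another lay above both.

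Among the 10 IFIT, OAS and Mx effectors were the largest changes of the list. Ifit3, which helps Ifit1 hold foreign RNA, had 6.38, 6.76 and 7.27 in TAC JQ1, 8.59, 8.65 and 8.07 in TAC vehicle and 8.64, 8.56 and 8.59 in sham vehicle at day 3. On day 11 Ifit3 had 8.04, 8.66 and 8.08 in TAC JQ1, 8.96, 9.23 and 8.92 in TAC vehicle and 8.12, 7.76 and 7.99 in sham vehicle. On day 28 it had 10.07, 8.09 and 8.05 in TAC JQ1, 9.49, 8.90 and 9.43 in TAC vehicle and 8.50, 8.44 and 8.49 in sham vehicle. JQ1 arrays were below both other groups at day 3 and below TAC vehicle at day 11, and at day 28 they held both the highest and the lowest values. The fall with JQ1 at day 3 was −1.63 ± 0.34, or 3.10-fold (adjusted p = 0.00228), and it held without each array in turn. The rise with TAC at day 11 was 1.08 ± 0.34, or 2.11-fold (0.0313), and it was lost without any single one of its 6 arrays (0.057 to 0.109). At day 28 Ifit3 changed with JQ1 by −0.54 ± 0.34 (0.259), and by −1.21 ± 0.22 without JQ1 replicate 1 (0.000508). The second value leaves out the array that was singled out for its high members.

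Ifit1, which binds RNA lacking a host cap, had fewer calls. At day 3 Ifit1 had 6.67, 6.69 and 6.96 in TAC JQ1, 7.74, 7.94 and 7.43 in TAC vehicle and 7.79, 7.89 and 7.75 in sham vehicle. At day 11 it had 7.72, 8.58 and 7.57 in TAC JQ1, 8.24, 8.28 and 8.07 in TAC vehicle and 7.57, 7.21 and 7.35 in sham vehicle. By day 28 the values were 10.00, 8.01 and 7.85 in TAC JQ1, 8.61, 8.27 and 8.24 in TAC vehicle and 7.46, 7.69 and 7.75 in sham vehicle. JQ1 arrays lay below both groups at day 3, and TAC vehicle lay above sham vehicle at days 11 and 28. The changes were −0.93 ± 0.34 with JQ1 at day 3 (adjusted p = 0.0786), 0.82 ± 0.34 with TAC at day 11 (0.116) and 0.74 ± 0.34 with TAC at day 28 (0.158). Without the first JQ1 array of day 28 these 3 passed, with adjusted p of 0.00147, 0.00298 and 0.00655. Ifit2, the third measured gene of this family, had changes of −0.64, 0.71 and 0.61 in the same comparisons and likewise passed in each without that array (0.00371, 0.001 and 0.00373) and not with it. Over the mean of the 3 days Ifit2 was called higher with TAC with all arrays (0.43). That call was lost for 10 of the 19 arrays left out in turn.

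Oasl2, a relative of the oligoadenylate synthetases, had 7.00, 7.37 and 7.62 in TAC JQ1, 8.61, 8.82 and 8.44 in TAC vehicle and 8.63, 8.55 and 8.65 in sham vehicle at day 3. On day 11 Oasl2 had 8.27, 8.79 and 8.22 in TAC JQ1, 9.25, 9.30 and 9.06 in TAC vehicle and 8.44, 8.30 and 8.45 in sham vehicle. On day 28 the signals were 9.80, 8.28 and 8.03 in TAC JQ1, 9.43, 9.24 and 9.06 in TAC vehicle and 8.37, 8.46 and 8.56 in sham vehicle. JQ1 lay below TAC vehicle without overlap at days 3 and 11. The fall at day 3 was −1.30 ± 0.27, or 2.46-fold (adjusted p = 0.00239), and held without each array in turn. The change at day 11 was −0.78 ± 0.27 (0.0513). With TAC the changes were 0.81 ± 0.27 at day 11 (0.0442) and 0.78 ± 0.27 at day 28 (0.0536). The day 11 call was lost without any single one of its 6 arrays (0.0666 to 0.125).

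Oas2, whose product activates RNase L, had 7.00, 7.31 and 7.66 in TAC JQ1, 8.39, 8.33 and 8.29 in TAC vehicle and 8.28, 8.60 and 8.34 in sham vehicle at day 3. On day 11 it had 7.79, 8.37 and 7.94 in TAC JQ1, 8.68, 8.52 and 8.38 in TAC vehicle and 8.16, 8.23 and 8.31 in sham vehicle. On day 28 Oas2 had 8.88, 7.97 and 7.94 in TAC JQ1, 8.85, 9.16 and 8.37 in TAC vehicle and 8.29, 8.57 and 8.44 in sham vehicle. JQ1 lay below both groups at day 3 and, by a narrow margin, below TAC vehicle at day 11. Its fall at day 3 was −1.02 ± 0.21, or 2.02-fold (adjusted p = 0.00216), and held without each array in turn. Oas2 was not called for TAC on any day. The related Oasl1, which restrains Irf7 translation, was lower with JQ1 at day 11 (−0.38 ± 0.12, adjusted p = 0.033), a call lost on leaving out TAC JQ1 replicate 1 (0.19) or TAC vehicle replicate 1 (0.109) or 2 (0.144). Oas1a, Oas3 and Mx2 were called in no comparison, and Mx1, a GTPase that traps viral nucleoproteins, only with TAC over the 3 days (0.31 ± 0.10, adjusted p = 0.0242), a call lost on leaving out TAC vehicle day 3 replicate 2 (0.0532) or TAC vehicle day 11 replicate 1 (0.0631) or sham vehicle day 3 replicate 3 (0.0508).

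**Figure D5:**
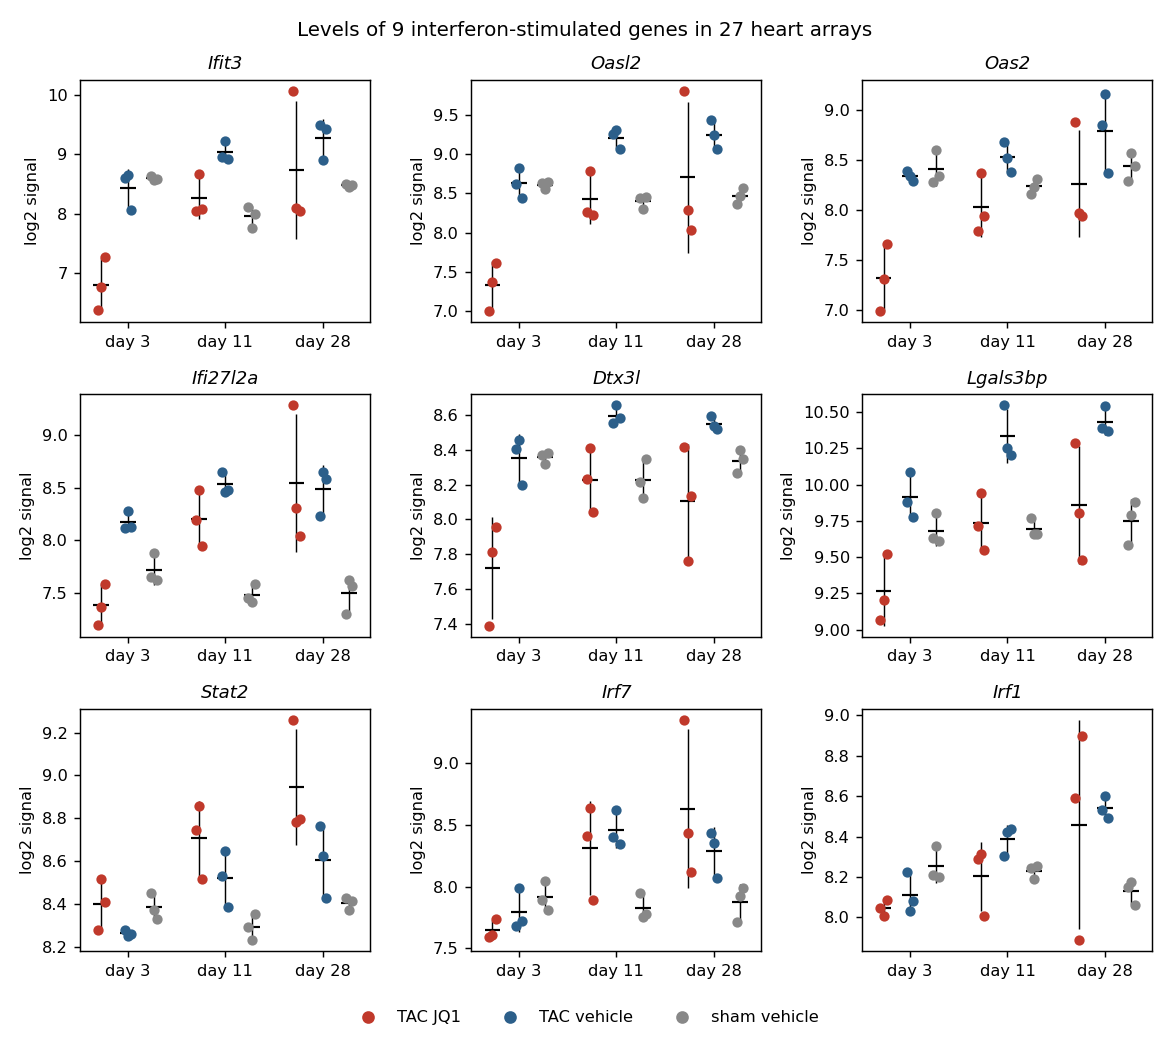
Log2 signal of 9 members in each of the 27 arrays by day, with the group mean (bar) and SD (line, n = 3). Points are TAC JQ1 (red), TAC vehicle (blue) and sham vehicle (grey). Ifit3, Oasl2 and Oas2 show the low JQ1 arrays of day 3 (6.38 to 7.66), the mean of Stat2 is higher in TAC JQ1 than in TAC vehicle on each day, and Irf1 has its widest spread in TAC JQ1 at day 28 (7.89 to 8.90).

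Of the 5 other antiviral effectors, Rsad2, Samd9l and Gbp3 were called both higher with TAC and lower with JQ1. On single days Rsad2 and Samd9l were called with JQ1 at day 3 only, and with TAC only later. Rsad2 (viperin), which makes a nucleotide that ends viral RNA chains, had 7.15, 7.56 and 8.03 in TAC JQ1, 8.43, 8.14 and 8.18 in TAC vehicle and 8.77, 8.51 and 8.56 in sham vehicle at day 3. On day 11 it had 8.91, 9.14 and 9.60 in TAC JQ1, 9.0, 9.13 and 9.02 in TAC vehicle and 8.42, 8.12 and 8.35 in sham vehicle. Day 28 gave 9.87, 8.98 and 8.71 in TAC JQ1, 8.96, 8.88 and 8.80 in TAC vehicle and 8.38, 8.48 and 8.39 in sham vehicle. JQ1 was the lowest group at day 3 without overlap, and at days 11 and 28 it overlapped TAC vehicle. Its mean was then above that of TAC vehicle, 9.22 against 9.05 at day 11 and 9.19 against 8.88 at day 28. Rsad2 rose with TAC by 0.75 ± 0.22 at day 11 (adjusted p = 0.0181), lost on leaving out TAC vehicle replicate 2 (0.0619) or sham vehicle replicate 2 (0.0782). With JQ1 it fell by 0.67 ± 0.22 at day 3 (0.0446), lost on leaving out TAC JQ1 replicate 1 (0.269) or 2 (0.0957) or TAC vehicle replicate 1 (0.157), 2 (0.0784) or 3 (0.0756). Against sham vehicle the change in TAC JQ1 was −1.03 ± 0.22 at day 3 (0.00148) and 0.92 ± 0.22 at day 11 (0.00646), and both calls held without each array. Cmpk2, a nucleotide kinase gene that neighbours Rsad2, was lower in TAC JQ1 than in sham vehicle at day 3 (−0.59 ± 0.18, adjusted p = 0.0269), lost on leaving out TAC JQ1 replicate 1 (0.109) or 2 (0.0648) or sham vehicle replicate 1 (0.121).

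Samd9l, an antiviral and growth-restraining gene, rose with TAC by 0.67 ± 0.19 at day 11 (adjusted p = 0.0166) and 0.71 ± 0.19 at day 28 (0.0121). The first call was lost on leaving out TAC vehicle replicate 1 (0.0701) or sham vehicle replicate 2 (0.083) and the second on leaving out sham vehicle replicate 1 (0.0543). It fell by 0.68 ± 0.19 with JQ1 at day 3 (0.0212), lost on leaving out TAC JQ1 replicate 1 (0.166) or TAC vehicle replicate 1 (0.0595) or 2 (0.0783). Gbp3 had 6.77, 6.61 and 6.75 in TAC JQ1, 7.67, 7.43 and 7.20 in TAC vehicle and 7.98, 7.75 and 7.85 in sham vehicle at day 3, and the 3 groups did not overlap. It fell with JQ1 by 0.73 ± 0.18 at day 3 (adjusted p = 0.00926) and by 0.66 ± 0.18 at day 11 (0.0145). The first call was lost on leaving out TAC vehicle replicate 1 (0.0558) and the second on leaving out TAC JQ1 replicate 3 (0.0687) or TAC vehicle replicate 2 (0.0851). With TAC it rose by 0.53 ± 0.18 at day 11 (0.0472), lost without any single one of the 6 arrays (0.05 to 0.202). Bst2 (tetherin), which holds budding virus at the membrane, was called in no comparison.

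Of the 5 genes of ISG15 and ADP-ribose transfer, 3 fell with JQ1 at day 3 (7.61% of all genes did) and 1 at day 28 (12.4% of all genes), and 0 were called with TAC on any single day. Dtx3l, a ubiquitin ligase that works with Parp9, had 7.39, 7.82 and 7.95 in TAC JQ1, 8.40, 8.46 and 8.20 in TAC vehicle and 8.37, 8.32 and 8.38 in sham vehicle at day 3. On day 11 Dtx3l had 8.23, 8.41 and 8.04 in TAC JQ1, 8.55, 8.65 and 8.58 in TAC vehicle and 8.21, 8.12 and 8.35 in sham vehicle. Day 28 gave 8.41, 7.76 and 8.14 in TAC JQ1, 8.59, 8.54 and 8.52 in TAC vehicle and 8.27, 8.40 and 8.35 in sham vehicle. JQ1 lay below TAC vehicle without overlap on all 3 days. Its changes were −0.63 ± 0.13 at day 3 (adjusted p = 0.00244), −0.37 ± 0.13 at day 11 (0.0605) and −0.45 ± 0.13 at day 28 (0.0193). The first call held without each array in turn, the last was lost on leaving out TAC JQ1 replicate 2 (0.17) or TAC vehicle replicate 1 (0.0587), and both were lost with only the 2 groups compared in the fit (0.067 at day 3 and 0.0838 at day 28). The ADP-ribosyltransferase gene Parp9 fell with JQ1 at day 3 (−0.66 ± 0.16, adjusted p = 0.00753), lost on leaving out TAC JQ1 replicate 1 (0.0605). Parp14, of the same family, fell too (−0.53 ± 0.16, adjusted p = 0.0358), lost on leaving out TAC JQ1 replicate 1 (0.182) or 2 (0.0793) or TAC vehicle replicate 1 (0.108), 2 (0.0784) or 3 (0.0692).

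Usp18, which removes ISG15 and damps the interferon receptor, was called in no comparison with all arrays. It had 7.24, 7.56 and 7.47 in TAC JQ1, 7.90, 8.03 and 7.70 in TAC vehicle and 7.97, 8.02 and 7.99 in sham vehicle at day 3. On day 28 it had 9.27, 8.11 and 7.91 in TAC JQ1, 8.49, 8.39 and 8.35 in TAC vehicle and 7.68, 7.91 and 8.03 in sham vehicle. JQ1 lay below both groups at day 3 without overlap. Its changes were −0.46 ± 0.22 with JQ1 at day 3 (adjusted p = 0.21) and 0.54 ± 0.22 with TAC at day 28 (0.109), and without the first JQ1 array of day 28 adjusted p was 0.0269 and 0.00723. Herc6, the main ISG15 ligase of the mouse, was called only above sham vehicle in TAC JQ1, at day 28 (0.79 ± 0.21, adjusted p = 0.0071) and over the 3 days (0.40 ± 0.12, 0.0124). Without JQ1 replicate 1 of day 28 these were 0.43 (0.0804) and 0.28 (0.0181).

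The antigen processing genes had small changes. Psmb8, a subunit of the immunoproteasome, had 7.14, 7.12 and 7.41 in TAC JQ1, 7.33, 7.46 and 7.38 in TAC vehicle and 7.42, 7.54 and 7.40 in sham vehicle at day 3, and the groups overlapped. At day 11 it had 7.39, 7.32 and 7.36 in TAC JQ1, 7.52, 7.67 and 7.61 in TAC vehicle and 7.51, 7.25 and 7.40 in sham vehicle, TAC vehicle being the highest group. It was called only for JQ1 over the 3 days (−0.18 ± 0.06, adjusted p = 0.0339), a call lost on leaving out any one of 11 arrays (0.0506 to 0.085), and Psmb9, another subunit, in no comparison. Tap1, which carries peptides to the class I molecules, rose with TAC by 0.37 ± 0.11 at day 28 (0.024) and fell by 0.35 ± 0.11 with JQ1 at day 28 (0.0284). The first call was lost on leaving out TAC vehicle replicate 1 (0.119) or 2 (0.0662) or sham vehicle replicate 1 (0.128) or 2 (0.0506), and the second on leaving out TAC JQ1 replicate 2 (0.0973) or 3 (0.09) or TAC vehicle replicate 1 (0.121) or 2 (0.0805).

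Of the 6 remaining members, Ifi27l2a and Lgals3bp were called for TAC at days 11 and 28 with no call lost to a single array. Ifi27l2a had 7.20, 7.37 and 7.59 in TAC JQ1, 8.12, 8.28 and 8.13 in TAC vehicle and 7.65, 7.88 and 7.62 in sham vehicle at day 3. On day 11 it had 8.19, 8.47 and 7.95 in TAC JQ1, 8.65, 8.46 and 8.48 in TAC vehicle and 7.45, 7.41 and 7.58 in sham vehicle. On day 28 Ifi27l2a had 9.28, 8.30 and 8.04 in TAC JQ1, 8.23, 8.65 and 8.58 in TAC vehicle and 7.30, 7.62 and 7.56 in sham vehicle. TAC vehicle lay above sham vehicle without overlap on all 3 days, and TAC JQ1 lay below sham vehicle at day 3 and above it at days 11 and 28. The rises with TAC were 1.05 ± 0.20 at day 11, or 2.07-fold (adjusted p = 0.000701), and 0.99 ± 0.20 at day 28 (0.00132). The fall with JQ1 at day 3 was −0.79 ± 0.20 (0.0111), lost on leaving out TAC JQ1 replicate 1 (0.0658) or TAC vehicle replicate 2 (0.0511).

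Lgals3bp, a secreted glycoprotein that binds galectins, had 9.06, 9.20 and 9.52 in TAC JQ1, 9.88, 10.08 and 9.78 in TAC vehicle and 9.64, 9.80 and 9.61 in sham vehicle at day 3. On day 11 Lgals3bp had 9.71, 9.94 and 9.55 in TAC JQ1, 10.55, 10.25 and 10.21 in TAC vehicle and 9.77, 9.66 and 9.66 in sham vehicle. On day 28 it had 10.29, 9.81 and 9.48 in TAC JQ1, 10.39, 10.54 and 10.37 in TAC vehicle and 9.58, 9.79 and 9.88 in sham vehicle. It was the 1 member called lower with JQ1 on every day, with changes of −0.65 ± 0.15, −0.60 ± 0.15 and −0.58 ± 0.15 at days 3, 11 and 28 (adjusted p = 0.00618, 0.00853 and 0.00903). The day 3 call held without each array, the day 11 call was lost on leaving out TAC vehicle replicate 1 (0.0613) and the day 28 call on leaving out TAC JQ1 replicate 3 (0.0621) or with only the 2 groups compared in the fit (0.0693). With TAC it rose by 0.64 ± 0.15 at day 11 (0.0046) and 0.68 ± 0.15 at day 28 (0.00296).

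Trim30a, a ubiquitin ligase that restrains Toll-like receptor signalling, rose with TAC by 0.60 ± 0.19 at day 11 (adjusted p = 0.0358) and 0.69 ± 0.19 at day 28 (0.0153) and fell by 0.72 ± 0.19 with JQ1 at day 3 (0.0151). The first call was lost without any single one of its 6 arrays (0.0561 to 0.114), the second on leaving out TAC vehicle replicate 3 (0.0501) or sham vehicle replicate 1 (0.0649) and the third on leaving out TAC JQ1 replicate 1 (0.0658) or TAC vehicle replicate 2 (0.0652). Rtp4, a chaperone of membrane receptors, had 6.12, 6.83 and 7.05 in TAC JQ1, 7.84, 7.84 and 7.52 in TAC vehicle and 8.26, 7.91 and 7.98 in sham vehicle at day 3. Every JQ1 array was below both other groups. Its fall with JQ1 was −1.07 ± 0.30, or 2.10-fold (0.021), lost on leaving out TAC JQ1 replicate 1 (0.153) or TAC vehicle replicate 1 (0.065) or 2 (0.0766). Xaf1, a promoter of cell death, was lower in TAC JQ1 than in sham vehicle at day 3 (−0.71 ± 0.22, adjusted p = 0.0258), lost on leaving out TAC JQ1 replicate 1 (0.151) or 2 (0.0533) or sham vehicle replicate 1 (0.0664), 2 (0.0574) or 3 (0.0629). Ifi35 was called in no comparison.

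At day 28 the comparison of TAC JQ1 with TAC vehicle is given again without JQ1 replicate 1, by member. The 15 members then lower were Ifit3 (−1.21), Oasl2 (−1.09), Oas2 (−0.83), Lgals3bp (−0.79), Gbp3 (−0.73), Xaf1 (−0.67), Parp9 (−0.64), Samd9l (−0.63), Ifit2 (−0.63), Dtx3l (−0.60), Trim30a (−0.50), Dhx58 (−0.48), Tap1 (−0.44), Ddx58 (−0.42) and Ifih1 (−0.42). With all arrays, the same 15 had changes of −0.58 to −0.09. Irf7 (−0.01), Irf1 (−0.15), Psmb8 (−0.27), Usp18 (−0.40) and Ifit1 (−0.44) were not called there (adjusted p = 0.959, 0.546, 0.0782, 0.0723 and 0.147). With 2 JQ1 arrays left, their spread is assumed to be that of the other groups. The array left out was singled out for its high members, so these falls are a description and no test independent of that choice.

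Genes that make and carry the interferon signal were counted in lists written from general knowledge, with earlier results of these data known. Of the 15 measured ligand genes, whose mean level per group was 5.96 to 6.16 on the log2 scale, 1 rose with TAC (Ifna4 at day 11, 0.36 ± 0.10, adjusted p = 0.0162). With JQ1 1 fell (Ifna12 at day 11, −0.51 ± 0.18, 0.0493) and 1 rose (Ifna13 at day 28, 0.45 ± 0.16, 0.0478). The ligand genes were dim, with a median percentile of 30.4 and the lowest at 1.77. Binding of one ligand gene's RNA to the probes of another was not assessed either, so these calls are not shown to be particular to the gene named. Of 15 receptor and signalling genes, 2, 3 and 3 rose with TAC at days 3, 11 and 28, and 2, 3 and 3 fell with JQ1. Over all genes 4.22%, 7.8% and 8.13% rose with TAC and 7.61%, 8.43% and 12.4% fell with JQ1. In the reverse direction 3.33%, 7.73% and 6.98% fell with TAC and 4.28%, 7.52% and 7.16% rose with JQ1. The counts of the ligand genes and of the lists that follow stand beside the same shares. Among the receptor and signalling genes Pias1, a SUMO ligase, rose with JQ1 at day 11 (0.48 ± 0.12, adjusted p = 0.00629). The interferon gamma receptor chain Ifngr1 rose with TAC by 0.43 ± 0.08 at day 11 (adjusted p = 0.000944) and 0.70 ± 0.08 at day 28 (5.86e-06), and fell by 0.41 ± 0.08 (0.00161) and 0.40 ± 0.08 (0.00174) with JQ1 on those days. The type I receptor chains Ifnar1 (0.26 ± 0.08, 0.0309) and Ifnar2 (0.43 ± 0.08, 0.000889) rose with TAC at day 28, and the kinase Jak1 fell (−0.23 ± 0.06, 0.0108).

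The pathway that leads to interferon production, from nucleic acid receptors to Irf3, held 13 measured genes. Tlr7, the endosomal receptor of single-stranded RNA, rose with TAC by 1.10 ± 0.24 at day 28 (adjusted p = 0.00255) and changed with JQ1 by −1.49 ± 0.24, −0.85 ± 0.24 and −1.78 ± 0.24 at days 3, 11 and 28 (0.000221, 0.0175 and 1.32e-05). Unc93b1, which carries such receptors to the endosome, rose with TAC by 0.49 ± 0.10 at day 11 (0.00157) and 0.74 ± 0.10 at day 28 (2.77e-05). With JQ1 it changed by −0.50 ± 0.10, −0.59 ± 0.10 and −0.60 ± 0.10 (0.00197, 0.000317 and 0.000176). In all, 2, 2 and 4 of the 13 rose with TAC, and 4, 5 and 4 fell with JQ1, at days 3, 11 and 28. Irf3, the factor that starts interferon beta transcription, rose with JQ1 by 0.29 ± 0.07 at day 11 (0.00566) and 0.21 ± 0.07 at day 28 (0.0356).

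A further 50 measured interferon-stimulated genes outside the list were set beside it. With TAC 1, 14 and 14 rose and 1, 1 and 0 fell at days 3, 11 and 28, with medians of −0.06, 0.26 and 0.27. With JQ1 0, 0 and 1 rose and 18, 10 and 12 fell, with medians of −0.38, −0.24 and −0.18. Ifi27 fell with JQ1 on each day (−0.45, −0.54 and −0.58, adjusted p = 0.000297, 3.2e-05 and 7.3e-06). The chemokine gene Cxcl10 rose with TAC on each day (0.39, 0.57 and 0.66, adjusted p = 0.0463, 0.00162 and 0.000475). Nmi, a binder of Stat proteins, fell with JQ1 at day 3 (−0.93 ± 0.12, 2.16e-05), and the restriction factor Ifitm3 rose with TAC at day 28 (0.80 ± 0.15, 0.000664). Of 4 measured class I antigen presentation genes, B2m, the shared light chain, rose with TAC at day 11 (0.37 ± 0.09, 0.005) and day 28 (0.51 ± 0.09, 0.000327), and the other 3 did not pass. At day 3 the mean of the 4 was 8.48 ± 0.16 in TAC JQ1, 8.75 ± 0.09 in TAC vehicle and 8.99 ± 0.04 in sham vehicle (SD, n = 3 each), and no 2 groups overlapped. With TAC 0 of the 4 were called that day. With JQ1 H2-T24 (−0.65 ± 0.19, 0.0229) and H2-M3 (−0.31 ± 0.10, 0.0381) fell at day 3, and H2-M3 at day 11 (−0.36 ± 0.10, 0.0141).

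Markers of macrophages and monocytes, lymphocytes, fibroblasts and endothelial cells were set beside the members. At day 3 the mean of 14 macrophage and monocyte markers was 8.17 to 8.38 in TAC JQ1, 8.73 to 9.32 in TAC vehicle and 8.32 to 8.61 in sham vehicle. Day 11 gave 8.16 to 8.24 in TAC JQ1, 8.79 to 9.04 in TAC vehicle and 8.18 to 8.24 in sham vehicle. On day 28 it was 8.30 to 8.64 in TAC JQ1, 9.0 to 9.30 in TAC vehicle and 8.04 to 8.16 in sham vehicle. With TAC 6, 13 and 13 of the 14 rose and 0 fell at days 3, 11 and 28, and with JQ1 10, 11 and 9 fell and 0 rose. Of the 37 members 0, 11 and 7 rose with TAC and 0 fell at days 3, 11 and 28. With JQ1 16, 4 and 3 of the members fell and 0, 0 and 1 rose. On day 3 TAC JQ1 against sham vehicle gave a median of −0.11 for the markers and −0.49 for the members. The monocyte receptor Ccr2 fell with JQ1 at day 3 (−2.33 ± 0.34, adjusted p = 9.92e-05). Markers of lymphocytes lay at a median percentile of 23.3, and 0, 1 and 0 of 11 rose with TAC while 0, 1 and 0 fell with JQ1 at days 3, 11 and 28. The mean of 10 fibroblast markers was 9.70 to 9.98 in TAC JQ1, 10.10 to 10.23 in TAC vehicle and 9.53 to 9.68 in sham vehicle at day 3. On day 11 the fibroblast mean was 9.83 to 9.99 in TAC JQ1, 10.35 to 10.45 in TAC vehicle and 9.28 to 9.39 in sham vehicle. Day 28 gave 9.78 to 10.08 in TAC JQ1, 10.16 to 10.69 in TAC vehicle and 9.34 to 9.44 in sham vehicle. TAC JQ1 lay between the other 2 groups without overlap on each day. With TAC 4, 7 and 10 of the 10 rose and 1, 0 and 0 fell at days 3, 11 and 28, and with JQ1 4, 5 and 6 fell and 1, 0 and 0 rose. The mean of 10 endothelial markers was 9.72 to 9.88 in TAC JQ1, 9.87 to 9.97 in TAC vehicle and 9.97 to 10.08 in sham vehicle at day 3. On day 11 it was 10.08 to 10.12 in TAC JQ1, 10.21 to 10.24 in TAC vehicle and 10.00 to 10.07 in sham vehicle, and on day 28 9.81 to 10.07 in TAC JQ1, 10.16 to 10.27 in TAC vehicle and 9.99 to 10.07 in sham vehicle. TAC vehicle lay below sham vehicle at day 3 and above both other groups without overlap at days 11 and 28. With TAC 0, 3 and 1 of the 10 endothelial markers rose and 0 fell, and with JQ1 2, 2 and 6 fell and 0 rose. The part of these cells in the changes of the members was not tested. In tissue RNA fewer cells of a type and less RNA per cell cannot be told apart.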

How the data were processed

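RNA from 27 samples of mouse heart was measured on Affymetrix arrays. The deposited values are the authors' processed log2 signals per probe set; their background correction and normalization are not stated in the labels or files, and the submitters' processing notes name limma without a version. A table of 34760 probe sets was used, of which 21640 name 1 gene, 1321 several and 11799 none. Probe sets that name several genes were left out, so Isg15 and Gbp2 have no value. One model with a mean per group was fitted with limma 3.58.1 in R 4.3.3 (with the data.table package, version 1.17.8), with 18 residual degrees of freedom, followed by eBayes. P-values were adjusted by Benjamini and Hochberg over 19937 genes. The steps were tested on simulated data. The members and gene lists were chosen with earlier results of these data known. Every called member is named, with values per array for members of each role; those of Rsad2, Gbp3, Irf9, Ifih1 and Rtp4 were chosen after their values were seen. Alternatives changed the normalization, the centring, the filter on dim genes, the probe set per gene, the moderation, the arrays in the fit, the replicate block and each array. Leaving out the first TAC JQ1 array of day 28 from the comparisons it is not part of was chosen after seeing the data.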

Additional observations from a re-analysis of the deposited data

How the results depend on the processing

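The number of arrays and the spread of the first TAC JQ1 array of day 28 limit the member counts. With only the groups compared in the fit, the counts were 23 for TAC at day 11, 22 for TAC at day 28, 26 for TAC over the 3 days, 8 for JQ1 at day 11, 0 for JQ1 at day 28, 2 for TAC JQ1 over sham vehicle at day 28 and 17 for the TAC effect by day. Without the dimmest genes, those in the lowest part of mean level that the filter removes, the JQ1 count at day 11 was 8. The shares of all genes called under these settings are not given here, so a shift of the members alone cannot be read from these counts. Leaving out each array in turn, the first JQ1 array of day 28 included, gave 0 to 2 members for TAC at day 3, 4 to 23 at day 11, 3 to 16 at day 28 and 8 to 22 over the 3 days. For JQ1 against TAC vehicle it gave 6 to 22 at day 3, 1 to 11 at day 11, 2 to 15 at day 28 and 16 to 29 over the 3 days. For TAC JQ1 against sham vehicle it gave 11 to 23, 1 to 7, 3 to 16 and 6 to 13. The TAC effect by day had 0 to 6 members. The mean change of the list ran from −0.37 to 0.0812 for JQ1 at day 28 and from 0.0171 to 0.472 for TAC JQ1 over sham vehicle at day 28. No called gene changed direction under any alternative run. The mean change of the list changed sign by less than the spread between replicates in 2 comparisons: for JQ1 at day 28 (−0.0735) without JQ1 replicate 2 (0.0723) or 3 (0.0812), and for TAC JQ1 over sham vehicle over the 3 days (−0.0131) without 5 JQ1 arrays in turn (up to 0.0384). Apart from the alternative's own construction the cause of each shift was not tested.

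Whether replicate numbers pair the samples was not settled. Deviations of same-numbered arrays correlated between −0.462 and 0.5, with 7 of 27 pairs above 0.1. At day 11 the correlations were 0.00635, 0.433 and 0.5 for TAC vehicle with sham vehicle. For TAC JQ1 with TAC vehicle on that day they were −0.033, −0.194 and −0.462. Such a spread cannot exclude a pairing in some groups. With the replicate number as a block, 0, 10 and 7 members were called for TAC at days 3, 11 and 28, 15, 4 and 4 for JQ1, and 17, 3 and 8 for TAC JQ1 over sham vehicle. Moderation with trend and robust fitting took Ifit3 and Oasl2 at day 11 of TAC to an adjusted p of 0.0538 and 0.0663, Rsad2 at day 3 of JQ1 to 0.0588, and, in TAC JQ1 over sham vehicle, Ifit1 at day 3 to 0.0582 and Ifit1 and Rtp4 at day 28 to 0.0673 and 0.0581. A second quantile normalization took Tap1 at day 28 to 0.0532 for TAC and 0.0579 for JQ1, and Rsad2 at day 3 of JQ1 to 0.0533. The block took Oasl2 at day 11 of TAC to an adjusted p of 0.0505 and Rsad2 at day 3 of JQ1 to 0.0556.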

Other observations

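Members also varied together among the 3 arrays of a group. After each group's mean was taken away, the median correlation between 2 members was 0.682 over the 27 arrays and 0.412 over the 26 without the first TAC JQ1 array of day 28. The members are read from the same arrays, and so share each array's tissue piece and processing, which makes these descriptions. Of the 37 members, 34 had a correlation above 0.5 with the mean of the others, and 24 did without that array. Oasl2 was the highest at 0.979, and Irf1 (0.22), Oas3 (0.26) and Zbp1 (0.44) were the lowest.

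Genes outside all the lists with the most similar course over the 27 arrays within groups were Gm4951 (0.926), Samhd1 (0.921), Cav1 (0.88), Gm8995 (0.858), Slfn3 (0.855), Ifi209 (0.851), Ifi213 (0.851) and Trim14 (0.845). Without the first TAC JQ1 array of day 28 their correlations with the list mean were 0.729, 0.802, 0.582, 0.569, 0.661, 0.584, 0.596 and 0.598.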
